A study of Homo sapiens with 16 samples.

Results

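HCT116 cells, a colorectal cancer line, had 2500 HIF-1α sites, and 1026 of them (41.0%, Wilson 95% interval 39.1 to 43.0) had no HIF-1α peak in any library of 3 other lines. These 1026 are called HCT116-only sites, and the remaining 1474 are called shared sites. A site was a merged region in which peaks of both HCT116 replicates (numbered 2 and 3) overlapped by at least 1 bp, and it was shared if at least 1 of 6 HIF-1α lists from A549 (lung cancer), PC3 (prostate cancer) and T47D (breast cancer) overlapped it by at least 1 bp. Over the 4 lines, the sites built in this way summed to 4254, of which HCT116 held 2500, PC3 1063, T47D 439 and A549 252. All 4 groups were cultures held at 0.5% O2 for 16 hours, with chromatin precipitated with a rabbit polyclonal antibody against HIF-1α, and HIF-2α lists of the same lines (rabbit polyclonal antibody, 2 per line) served only as a further readout. No normoxic list was used here, nor any list of HIF-1β, the partner subunit, whose peaks the study required for its own sites. Each line is a single cancer model. The labels do not say that replicates were separate cultures, so p-values measure only the spread between these libraries, which may be technical. Peak lists hold no expression, so the label HCT116 could not be checked from marker genes.

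HIF-1α is the oxygen-regulated subunit of hypoxia-inducible factor 1. It is degraded when oxygen is ample, accumulates in hypoxia, pairs with HIF-1β and binds DNA at the core RCGTG, in which R is A or G. Its best known targets encode glycolytic enzymes, glucose and lactate transporters, oxygen-sensing prolyl hydroxylases and angiogenic factors, and HIF-2α pairs with the same partner and reads the same core.

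The sequences below show what the strongest sites of each class look like around the core nearest to their peak centre, in GRCh37 and on the plus strand, 5′ to 3′. Capitals mark RCGTG on either strand (its reverse complement is CACGT or CACGC). The first 6 are HCT116-only sites, at 5 promoters and 1 distal region, and the last 5 are among the strongest shared sites.
RNF165, chr18:43913536-43913595: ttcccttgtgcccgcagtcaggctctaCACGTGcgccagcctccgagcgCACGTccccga
TOMM40, chr19:45394505-45394534: cgggttcggttgcGCGTGgcgcacggggtg
DIXDC1, chr11:111807855-111807914: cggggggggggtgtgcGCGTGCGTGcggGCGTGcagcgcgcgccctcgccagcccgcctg
TRPT1, chr11:63993373-63993402: ttaaggccccttcCACGTccccatccctcc
MXI1, chr10:111986554-111986583: cgtgaggggagggGCGTGcacatgtgaggg
SLC2A1 distal, chr1:43473794-43473853: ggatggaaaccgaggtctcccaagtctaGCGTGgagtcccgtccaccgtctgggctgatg
GPI, chr19:34850216-34850275: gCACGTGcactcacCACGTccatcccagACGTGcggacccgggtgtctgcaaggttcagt
ENO1, chr1:8938785-8938844: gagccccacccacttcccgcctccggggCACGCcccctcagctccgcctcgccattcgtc
ANKRD37, chr4:186317649-186317708: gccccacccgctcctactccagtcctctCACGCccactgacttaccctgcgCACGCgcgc
ZNF292, chr6:87865257-87865286: gcattgtgttatCACGTGacccaggtgcgt
NARF, chr17:80416374-80416403: cccccggcgccgtACGTGgagtgagcctgc
An ACGTG core lies in the HCT116-only windows of RNF165 and TRPT1 and in the shared windows of GPI, ZNF292 and NARF, and the other windows shown hold GCGTG alone. These windows are examples and support no comparison of the classes. No core lay within 200 bp of the mean peak centre at the HCT116-only promoter of TBC1D12 or at the HCT116-only regions nearest to AL137798.1 and DNAJB12.

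The first comparison asked how strong HCT116-only sites were in HCT116 itself. They held the weaker peaks. Strength was read as the percentile rank of a peak's score within its own list (100 is the highest score), because the deposited score has no stated scale. In replicate 2 the median rank was 52.4 at HCT116-only and 79.8 at shared sites, and in replicate 3 it was 53.8 and 76.7. The mean over both replicates was 53.1 ± 0.967 at HCT116-only and 78.2 ± 2.15 at shared sites (SD, n = 2 libraries). The difference of −25.2 ± 3.12 had the same sign in both libraries and was larger than their spread.

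The share of HCT116-only sites fell at every step from the weakest to the strongest of 10 equal groups of sites. It was 71.2% (178 of 250, 65.3 to 76.5) in the weakest group, 48.8% in the fifth and 2.0% (5 of 250, 0.857 to 4.60) in the strongest. Rank also rose with the number of other lines that had a peak. In replicate 2 the median rank was 52.4 at the 1026 sites with no other line, 70.6 at 841 sites with 1 other line, 83.1 at 352 sites with 2 and 96.1 at 281 sites with all 3. Sites present everywhere were thus close to the top of the HCT116 list, and HCT116-only sites were centred on its middle.

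**Figure D1:**
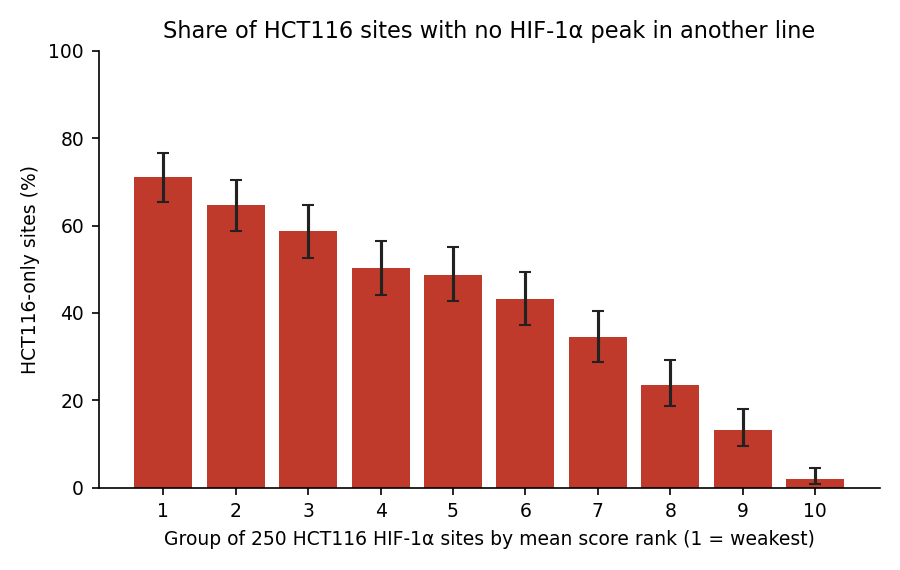
Percent of HCT116 HIF-1α sites that had no HIF-1α peak in A549, PC3 or T47D (vertical axis), in 10 groups of 250 sites ordered by mean score rank over the 2 HCT116 libraries (horizontal axis). Bars are shares and error bars are Wilson 95% intervals, which cover counting error only. The share falls from 71.2% in the weakest group to 2.0% in the strongest.

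The lists that decide the class differed in length. The HCT116 lists held 4505 and 4465 peaks, against 382 and 629 in A549, 1517 and 3413 in PC3 and 761 and 711 in T47D. Read depth is unknown, every list starts at a score of about 50, and a site without a listed peak is not shown to be unbound. PC3 peaks overlapped 1377 HCT116 sites (55.1%), T47D peaks 578 and A549 peaks 433, and 753 sites were shared through PC3 alone. Without PC3, 1779 sites were HCT116-only. When each list was shortened to its best 380 peaks, 37 of 290 HCT116 sites (12.8%) were HCT116-only. The shortened lists gave 37 line-only and 253 shared sites in HCT116 and 45 and 227 in PC3. They gave 46 and 225 in T47D and 38 and 179 in A549, so HCT116 had the smallest line-only share there. With full lists, the rule gave 227 PC3-only sites (21.4% of PC3 sites), 47 T47D-only sites (10.7%) and 19 A549-only sites (7.54%). The median distance from an HCT116-only site to the nearest peak centre of another line was 112652 bp. Within 2000 bp of one were 6 of the 1026, a count that the class rule largely fixes, because an overlapping peak makes a site shared. Within 10000 bp of one were 81 (7.89%), and within 50000 bp 319 (31.1%).

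The replicates ordered HCT116-only sites less alike than shared sites. Over sites, the Spearman correlation of the ranks in replicates 2 and 3 was 0.365 for 1026 HCT116-only and 0.732 for 1474 shared sites, given as a description of points that share libraries. A further 3931 merged regions had a peak in 1 HCT116 replicate only, and 3231 of these (82.2%) had no peak in another line. The demand for both replicates set aside more such regions than it kept.

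HCT116-only sites were promoter sites to nearly the same degree as shared sites. A site was called a promoter site when its centre lay within 1000 bp of the start of a protein-coding transcript. By this measure 772 of 1026 HCT116-only sites (75.2%, 72.5 to 77.8) and 1117 of 1474 shared sites (75.8%, 73.5 to 77.9) were at promoters. By library, 75.2% of HCT116-only and 75.9% of shared peaks lay there in replicate 2, and 74.8% and 75.8% in replicate 3. Both libraries were read at the same merged sites, so their closeness is no measure of replicate spread. The mean difference of −0.869 percentage points depended on how sites were built. With single-library peaks in place of sites it was −16.0 points in replicate 3 alone and −12.6 in replicate 2 alone, and without PC3 it was 2.39 points in the other direction.

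The promoters themselves were mostly CpG-rich in both classes. This type, which is common at broadly expressed genes, made up 93.8% of HCT116-only promoter sites (724 of 772, 91.9 to 95.3) and 95.5% of shared ones (94.1 to 96.6), against 62.0% of 19821 protein-coding genes. Bidirectional promoters, where protein-coding genes on opposite strands diverge within 1000 bp, made up 9.07% of HCT116-only (7.24 to 11.3) and 12.2% of shared promoter sites (10.4 to 14.2). Of the 19821 protein-coding genes, 13.0% had such a promoter. That share counts both genes of a pair, whereas a site at the pair counts once, so it is not directly comparable with the site shares. A lncRNA start lay within 1000 bp at 25.0% of HCT116-only and 25.8% of shared promoter sites. The merged site covered the gene start itself at 97.4% of HCT116-only and 98.5% of shared promoter sites. No test was made over sites, which are not replicates.

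Of the 254 HCT116-only sites away from promoters, 57.9% were intergenic, 29.9% intronic and 12.2% exonic, next to 55.5%, 32.8% and 11.8% of 357 shared ones. In all, 160 HCT116-only sites (15.6%, 13.5 to 17.9) and 205 shared sites (13.9%, 12.2 to 15.8) lay more than 10000 bp from a start. Peak widths were close as well. The median width was 1341 bp at HCT116-only and 1420 bp at shared sites in replicate 2, and 1316 and 1336 bp in replicate 3. On the log10 scale the difference was −0.0157 ± 0.0129 (SD, n = 2), and within 4 equal groups of sites of like rank its sign turned (0.0171).

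The genes at HCT116-only promoters were largely other genes than those at shared promoters. A start of 852 of 19794 protein-coding genes (4.30%) lay at an HCT116-only site, a start of 1288 genes (6.51%) at a shared site, and a start of 2121 genes (10.7%) at either. Only 19 genes had starts of both kinds, which is 2.23% of the 852, and 34 of the 852 (3.99%) had a peak of another line at some start. Sites are defined by the peaks in other lines, so that small overlap follows in part from the definition.

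**Figure D2:**
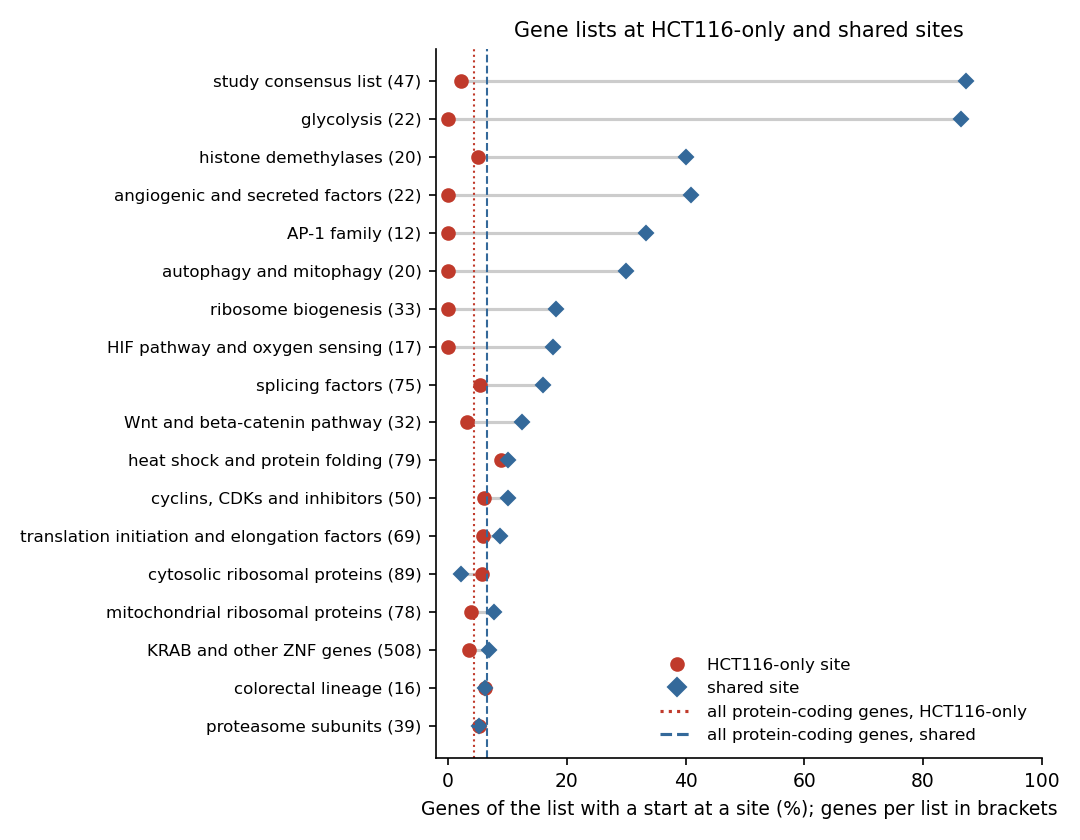
Percent of the genes of each list (vertical axis, number of genes in brackets) whose start lay within 1000 bp of an HCT116-only site (circles) or a shared site (diamonds). The dotted and dashed lines are the same percents over all protein-coding genes, 4.30% and 6.51%. The consensus HIF targets (87.2%) and glycolysis (86.4%) stand far to the right at shared sites and at 2.13% and 0 at HCT116-only sites.

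The textbook hypoxia response was at shared sites. Of 22 glycolysis genes, 19 had a start at a shared site and 0 at an HCT116-only site, and the others (PFKFB3, PFKM and SLC2A3) had neither. Of 47 protein-coding genes of a consensus HIF target list chosen by the study partly on these samples, and so no independent evidence, 41 had a start at a shared site and 1 of these, MXI1, whose product antagonises MYC, had another start at an HCT116-only site. The remaining 6 were ADM, C8orf58, NDRG1, NPEPPS, PDLIM2 and SEMA4B, of which 5 were the nearest gene to a shared HCT116 site farther from a start. Among angiogenic and secreted factors 9 of 22 were at shared and 0 at HCT116-only sites, and among 20 autophagy and mitophagy genes 6 and 0. Of 20 histone demethylases, oxygen-dependent enzymes in part induced by HIF, 8 were at shared sites and only KDM7A was at an HCT116-only site, with a mean rank of 25.4. Over all protein-coding genes the shares were 6.51% at shared and 4.30% at HCT116-only sites. In lists of 20 or 22 genes, 0 or 1 gene at HCT116-only sites is thus near the share of all genes.

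Other lists had genes in both classes. Beside them, 4.30% of all protein-coding genes were at HCT116-only and 6.51% at shared sites. Cytosolic ribosomal proteins were at HCT116-only sites for 5 of 89 genes (5.62%) and at shared sites for 2 (2.25%). The 5 were RPL35, RPL7, RPL8, RPLP2 and RPS21, and the strongest of them, RPS21, had scores of 135 and 107. Heat shock and protein folding genes were at HCT116-only sites for 7 of 79 (8.86%) and at shared sites for 8 (10.1%). They included the co-chaperone BAG3 (scores 120 and 129) and the chaperones HSPA14 (133 and 140) and DNAJC25 (173 and 136), whereas the mitochondrial chaperonin pair HSPD1 and HSPE1 shared a stronger common site (409 and 281). A second start of HSPD1 was also at an HCT116-only site.

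Splicing factors were at HCT116-only sites for 4 of 75 genes (HNRNPD, HNRNPL, SRSF6 and TRA2B) and at shared sites for 12. Translation factors were at HCT116-only sites for 4 of 69 and at shared sites for 6. Mitochondrial ribosomal proteins gave 3 and 6 of 78, respiratory chain genes 2 and 5 of 86, cyclins and their partners 3 and 5 of 50, DNA replication genes 2 and 2 of 47, proteasome subunits 2 and 2 of 39, histone genes 3 and 2 of 74, and zinc finger genes 18 and 35 of 508. Ribosome biogenesis (0 and 6 of 33), oxygen sensing (0 and 3 of 17), AP-1 (0 and 4 of 12), tRNA synthetases (0 and 2 of 35) and the p53 pathway (0 and 1 of 16) had no gene at an HCT116-only site. The shares of all protein-coding genes, 4.30% at HCT116-only and 6.51% at shared sites, apply to these lists too. In the smaller lists 1 or 2 genes move the share by several points.

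Colorectal lineage and Wnt genes were at HCT116-only sites in shares (6.25% and 3.12%) on either side of the 4.30% of all genes. Of 16 colorectal lineage genes, only CDH1 (E-cadherin, an adhesion protein of epithelia) had a start at an HCT116-only site, with scores of 109 and 81.3, and EPCAM had one at a shared site. Of 32 listed genes of the Wnt pathway, which is active in most colorectal cancers, NKD1 alone was at an HCT116-only site and 4 were at shared sites. The NKD1 scores of 50.6 and 55.5 were close to the lower limit of the lists. DIXDC1, a Wnt pathway gene that the list does not hold, also had an HCT116-only promoter site, with scores of 262 and 201. Of 18 lineage genes of prostate, breast and lung, GREB1, an estrogen-responsive gene, was at an HCT116-only site with scores of 128 and 136.

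The strongest HCT116-only promoter was that of RNF165, which encodes a RING-type ubiquitin ligase. Its site (chr18:43912937-43914141, 392 bp upstream of the start) had HIF-1α scores of 435 and 403 in replicates 2 and 3, and the 2 HIF-2α libraries of HCT116 had peaks there with scores of 74.9 and 64.6. It was the only one of the 12 leading HCT116-only promoters with HIF-2α in both HCT116 libraries. DIXDC1, a Wnt pathway protein with a DIX domain, had 262 and 201 and a HIF-2α peak in replicate 3 only (67.5). TOMM40, the channel of the mitochondrial outer membrane import complex, had 245 and 238 and no HIF-2α peak in any line.

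The other leading HCT116-only promoters had scores between 162 and 268. TRPT1, a tRNA-processing enzyme, and NUDT22 shared a site with 268 and 187. ST3GAL1, a sialyltransferase, had 199 and 253. TBC1D12, of a family of Rab GTPase-activating proteins, had 255 and 186. The order of these genes differed between the replicates. PRKAG2, a regulatory subunit of the energy sensor AMPK, had 196 and 248. RREB1, a zinc finger factor, had 249 and 162. SLC16A6, of the monocarboxylate transporter family, and the lysosomal sulfatase gene ARSG shared a site with 190 and 194. RUNDC3B and the cyclin gene CCNP completed the 12, and RUNDC3B alone of these had a HIF-2α peak in HCT116 (51.9, replicate 3).

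**Figure D3:**
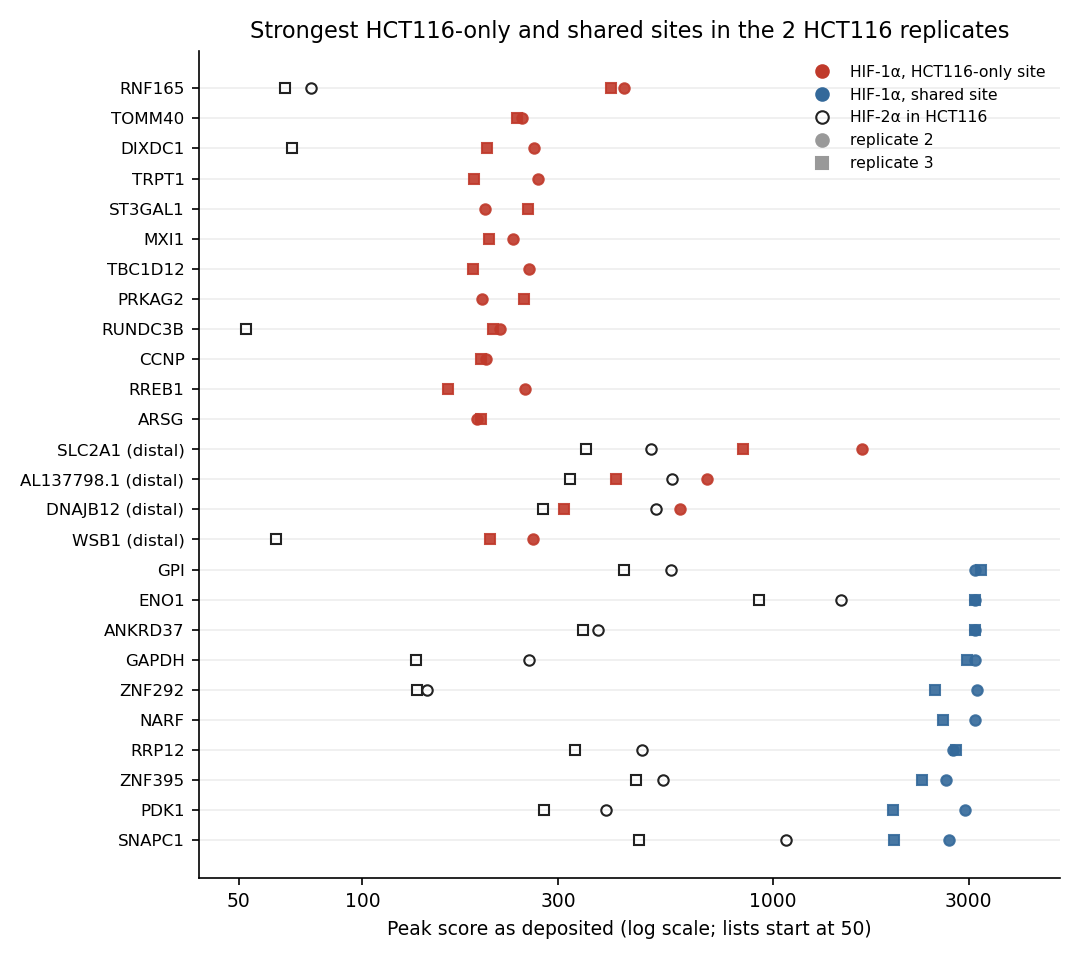
Deposited peak scores (log axis) at the 12 strongest HCT116-only promoter sites, 4 of the strongest HCT116-only sites over 10000 bp from a start and the 10 strongest shared sites, named by nearest gene. Filled symbols are HIF-1α, open symbols HIF-2α in HCT116, circles replicate 2 and squares replicate 3. The HIF-1α scores of the 10 shared sites all lie above those of the HCT116-only sites, from the distal SLC2A1 site (1650 and 844) downward.

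All of these scores were far under those of the leading shared sites. GPI, the glycolytic isomerase, had 3100 and 3223 in HCT116 and between 1505 and 3100 in the 6 other libraries. ENO1, the glycolytic enolase, had 3100 in both HCT116 libraries and 1008 to 3184 elsewhere. The other 8 were at or near ANKRD37, GAPDH, ZNF292, NARF, RRP12 with PGAM1, ZNF395, PDK1 and SNAPC1. Every one of the 10 had a HIF-1α peak in all 6 libraries of the other lines, and their lowest HCT116 score was 1964, above the highest of the named HCT116-only sites.

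MXI1 and SLC2A1 were the nearest genes to sites of both classes. MXI1 had a shared site (697 and 516 in HCT116, peaks in all 6 other libraries) and, at another start inside the gene, an HCT116-only site at chr10:111985479-111987724 (233 and 203) with 7 and 8 RCGTG copies in the central 200 bp. SLC2A1, the glucose transporter GLUT1, had 2 shared sites, 290 bp downstream (458 and 703) and 3993 bp upstream (147 and 139) of the start. The HCT116-only site at chr1:43472428-43474812 lay 49081 bp upstream, with scores of 1650 and 844. That was higher than either shared SLC2A1 site in both replicates, and it was the HCT116-only site with the highest mean rank (99.1).

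The distal SLC2A1 site belonged to a small group with peaks of both HIF-α subunits in both HCT116 replicates. HIF-2α scores there were 505 and 351 in HCT116, and no other line had a HIF-2α peak. The region 29302 bp from AL137798.1 (chr1:17025369-17032231, 6863 bp wide) had HIF-1α scores of 692 and 415 and HIF-2α scores of 569 and 320, and PC3 replicate 2 had a HIF-2α peak there too (83.8). The region 22343 bp from DNAJB12, a co-chaperone gene (chr10:74081353-74083399), had 595 and 309 for HIF-1α and 518 and 275 for HIF-2α. At these regions the core was rare: the central 200 bp held 0 or 1 copies in each replicate. By contrast the HCT116-only site nearest to WSB1, a ubiquitin ligase subunit, had HIF-1α scores of 260 and 205 and a HIF-2α peak in replicate 3 only (61.6).

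Across all HCT116-only sites HIF-2α was less frequent than at shared sites. A HIF-2α peak of either HCT116 library overlapped 128 of 1026 HCT116-only sites (12.5%, 10.6 to 14.6) and 411 of 1474 shared sites (27.9%, 25.7 to 30.2). By HIF-1α library the shares were 12.1% and 27.7% in replicate 2 and 12.4% and 27.6% in replicate 3, a mean difference of −15.4 points. Both libraries were read at the same merged sites and against the same HIF-2α peaks, so their closeness is no measure of replicate spread. The difference moved with score rank. In the weakest of 4 equal rank groups the shares were 7.23% and 8.57%, and in the strongest 42.4% of 59 HCT116-only and 49.1% of 566 shared sites, and the mean difference within rank groups was −3.03 points. Promoters and other sites differed in both classes: 10.5% of HCT116-only promoter sites and 18.5% of other HCT116-only sites had HIF-2α, next to 23.2% and 42.6% of shared ones. Only 28 HCT116-only sites (2.73%) had HIF-2α in both HCT116 libraries, 17 of them over 10000 bp from a start and 8 at promoters.

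The core in the DNA differed between the classes in its first base. RCGTG lay in the central 200 bp of 60.0% of HCT116-only and 69.8% of shared peaks in replicate 2, and of 59.8% and 67.8% in replicate 3. The difference was −8.85 ± 1.22 points (SD, n = 2). Both libraries were read at the same merged sites. Their closeness, here and for the words below, is therefore no measure of replicate spread. At promoter sites ACGTG was in 24.0% of HCT116-only and 38.7% of shared peaks in replicate 2, and in 26.2% and 37.6% in replicate 3. GCGTG was in 48.4% and 49.8%, and in 48.7% and 48.7%. So the classes were apart in ACGTG and close in GCGTG in both libraries. In windows of the same length at all protein-coding promoters, ACGTG was in 16.2%, GCGTG in 32.6% and RCGTG in 42.7%. Of those promoters 62.0% were CpG-rich, against 93.8% of HCT116-only promoter sites. The words contain CpG and the windows were not matched for it, so these shares are no measure of enrichment. HCT116-only promoter peaks held a median of 23 CpG per 200 bp against 22 at shared ones.

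Away from promoters the same base set the classes apart. ACGTG was in 33.9% and 29.1% of HCT116-only peaks in replicates 2 and 3 and in 50.7% and 48.5% of shared peaks. The AP-1 word TGANTCA was in 9.45% and 10.6% of HCT116-only and 17.9% and 17.6% of shared peaks there, and in 1.42% to 2.33% of promoter peaks of either class. The GC-box word GGGCGG went the other way. Away from promoters it was in 46.1% and 39.8% of HCT116-only and 36.1% and 36.4% of shared peaks. At promoters it was in 64.1% and 66.7% against 60.3% and 61.3%. HCT116-only peaks away from promoters were also richer in CpG (median 14.5 and 13.0 per 200 bp, against 10.0 at shared ones). Their median GC was 67.5% against 62.5%. The part of this composition in the word shares was not tested. All words were searched on both strands, and a match is a description of these letters only.

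The ACGTG gap was not the same at all ranks. In the weakest of the 4 rank groups ACGTG was in 23.4% and 23.1% of HCT116-only and 40.5% and 36.2% of shared peaks in replicates 2 and 3. In the strongest it was in 42.4% and 40.7% of HCT116-only and 44.3% and 44.3% of shared peaks. The gap in the strongest group was thus under 4 points in each library, with 59 HCT116-only sites behind it.

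**Figure D4:**
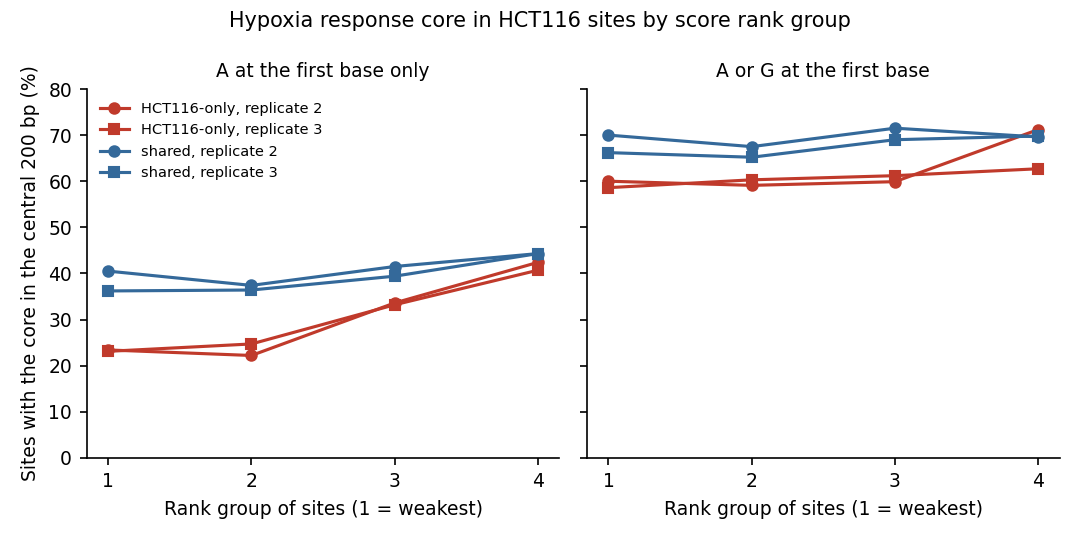
Percent of HCT116 peaks with the hypoxia response core in the central 200 bp (vertical axis), in 4 equal groups of sites from weakest to strongest score rank (horizontal axis), for the core with A first (left) and with A or G first (right). Red is HCT116-only, blue shared, circles replicate 2 and squares replicate 3. On the left, red lies at 22.2% to 24.7% and blue at 36.2% to 40.5% in the lower 2 groups, and all 4 points lie between 40.7% and 44.3% in the top group.

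The last comparison asked whether HCT116-only sites differed from shared sites in the way line-only sites of the other lines did. In A549, PC3 and T47D, sites found in 1 line were mostly away from promoters, whereas in HCT116 they were mostly at promoters. Line-only peaks at promoters were 15.8% in both A549 libraries, 38.2% and 37.9% in PC3 and 27.7% in both T47D libraries, next to 74.8% and 75.2% in HCT116. Line-only minus shared was −40.3 ± 6.78 points in the other lines (SD, n = 6 libraries) and −0.869 in HCT116 (n = 2), and no library of another line reached the HCT116 values. The difference of 39.4 points had an exact two-sided permutation p of 0.0357, the smallest that 28 relabellings of 8 libraries allow. After Benjamini-Hochberg adjustment over 5 tests it was 0.0595, which did not pass 0.05. A measure at that smallest p could pass only if most of the other measures reached it too, so not passing says little. The 2 libraries of a line were read at the same merged sites and are not independent, so these p-values are too small. With lines as units the p was 0.25, the smallest that 4 lines allow in an exact permutation test. In lists of 380 peaks each, 67.6% of 37 HCT116-only sites were at promoters (51.5 to 80.4), next to 15.8% in A549, 22.2% in PC3 and 43.5% in T47D.

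HIF-2α went the other way in HCT116. Line-only sites in A549, PC3 and T47D had a HIF-2α peak of their own line more often than shared sites, by 15.5 ± 11.1 points (SD, n = 6, from 3.63 to 29.4), and HCT116-only sites had one less often (−15.4 points). The difference of −30.9 points gave an exact permutation p of 0.0357 (adjusted 0.0595). It was −9.40 points with peaks of either replicate and −10.9 in lists of 380 peaks. With peaks of either replicate HCT116 itself was at −15.6 points, so the mean of the other lines was negative too. The opposite direction was thus not kept there. In lists of 380 peaks HCT116 was at −9.38 points, so the mean of the other lines was only slightly positive. Width gave 0.0304 on the log10 scale with the same exact permutation p of 0.0357 and adjusted p of 0.0595. The libraries of a line were not independent here either, so these p-values are too small. With lines as units the exact permutation p was 0.25 for both HIF-2α and width. Rank (−10.0, exact permutation p = 0.143, adjusted 0.179) and the RCGTG share (−1.14 points, exact permutation p = 0.714, adjusted 0.714) did not pass the threshold either, which does not show that HCT116 and the other lines were alike in them.

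**Figure D5:**
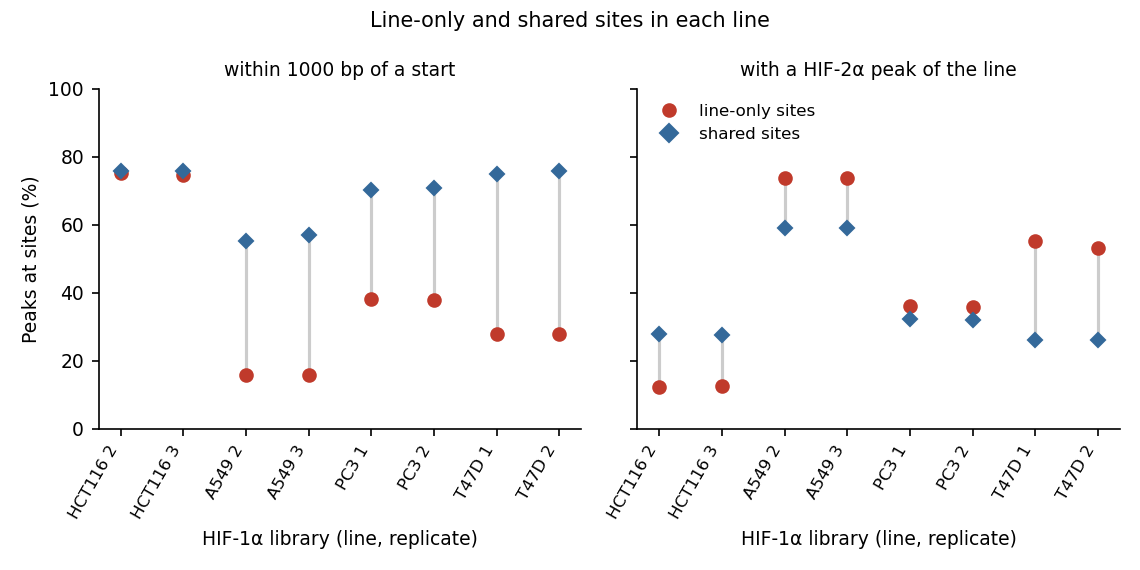
Percent of HIF-1α peaks at line-only sites (circles) and shared sites (diamonds) in each of the 8 HIF-1α libraries (horizontal axis: line and replicate), within 1000 bp of a protein-coding start (left) and overlapped by a HIF-2α peak of the same line (right). The HCT116 circles lie at 74.8% and 75.2% on the left, beside the diamonds, and under the diamonds on the right, while in the 6 other libraries the circles lie under the diamonds on the left and over them on the right.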

How the data were processed

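ChIP-seq peak lists of HIF-1α and HIF-2α in 4 cell lines were analysed, 16 lists in all, grouped by the labels. The authors trimmed reads (Trim Galore 0.3.3), aligned them to GRCh37 (BWA 0.7.5a-r405), filtered them (SAMtools 0.1.19, mapping quality under 15 removed; bedtools 2.17.0 for blacklisted regions; Picard 2.0.1 for duplicates) and called peaks with T-PIC and MACS, keeping for the study those found by both and passing a read-count filter against random regions. The lists used here carry MACS peak names, 1 list per library, and whether the second caller and the filter were applied to them is not given in the sources used here, nor is the version of MACS. For its own HIF-1 and HIF-2 sites the paper also required HIF-1β peaks. None were used here, so the sites here are not those of the study. The score deposited with each peak was used only for rank and filters. Read depth is unknown, so precision is limited by the number of peaks, and Wilson intervals cover counting error only.

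Peaks on chromosomes 1 to 22, X and Y were used, which left out 2 of 2502 HCT116 sites. Overlaps, transcript starts (GENCODE release 44, mapped to GRCh37) and motifs were computed in Python 3.11.15 with numpy 2.4.6, scipy 1.17.1 and pysam 0.24.0, and tested on simulated intervals against bedtools 2.31.1. Differences between classes were computed per library. HCT116 was compared with the other lines by exact permutation over 8 libraries. CpG-rich promoters had a 500 bp window with observed/expected CpG of at least 0.75 and GC of at least 55% within 700 bp of the start. Named sites were the 12 HCT116-only promoter sites, 5 HCT116-only sites over 10000 bp from a start, 10 shared sites and 5 HCT116-only sites with HIF-2α in both HCT116 libraries of highest mean rank, and up to 3 genes per list and class, fewer where printed; 1 of these sites and 1 sequence are not reported here. Members and lists were chosen with earlier results of these data known. Alternatives covered overlap, list length, score, promoter and motif windows, and each library or line left out.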

Additional observations from a re-analysis of the deposited data

Results flagged for a closer look

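The HIF-2α share difference is listed because HCT116 and the other lines differed in direction. Line-only minus shared was negative in both HCT116 libraries and positive in all 6 others. The difference between the means was −30.9 points (exact permutation p = 0.0357, adjusted 0.0595). It was −9.40 with peaks of either replicate, where the mean of the other lines was negative as in HCT116. With 380 peaks per list it was −10.9, and the mean of the other lines was only slightly positive. The libraries of a line are not independent, so these p-values are too small, and with lines as units the exact permutation p was 0.25. The HIF-2α lists differ in length between lines, and the part of this in the result was not tested.

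The HIF-2α lists of the other lines, which no class used, had a peak at 36 of 1026 HCT116-only sites (3.51%, 2.55 to 4.82), next to 429 of 1474 shared sites (29.1%, 26.8 to 31.5). Of the 36, 19 were promoter sites. One was the site 6359 bp upstream of LIF, an interleukin-6 family cytokine (chr22:30648084-30650130). Its HIF-1α scores were 262 and 167 in HCT116, with no HIF-1α peak elsewhere. Its HIF-2α scores were 53.8 and 129 in HCT116, 150 and 172 in A549 and 142 in PC3 replicate 2. TRPT1 and GINS1, a DNA replication gene, were 2 others, with single HIF-2α peaks of 66.5 in A549 and 56.7 in PC3.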

How the results depend on the processing

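The number of HCT116-only sites was 1721 with presence counted only at sites of another line, 4257 of 6431 with peaks of either replicate, 37 with 380 peaks per list and 574 with scores of at least the median, 76.6. Leaving out a library or line gave 1032 to 2713, with over 1.5 times the number without HCT116 replicate 2 (2713), HCT116 replicate 3 (2592) or PC3 (1779). The rank difference stayed negative, at −29.0, −35.0, −2.27 and −14.6 under the same 4 settings, −20.2 with means, and −36.2 to −24.4 with a library or line left out. The HIF-2α difference stayed negative, at −24.2, −15.6, −9.38 and −19.4, −14.6 with 50% reciprocal overlap, −11.0 with HIF-2α in both libraries, −3.03 within 4 rank groups, and −20.4 to −14.5 with a library or line left out. The RCGTG difference was −14.2 with either replicate, 2.02 with 380 peaks, −4.69 over the median score, −5.70 in 100 bp, −1.95 in whole peaks, −12.2 away from promoters, −7.22 within rank groups, and −15.8 to −7.46 with a library or line left out. The promoter difference was −0.0258 with reciprocal overlap, 4.04 against sites, −14.3 with either replicate, −1.60 with 380 peaks, 3.12 over the median score, −0.101 with all gene types, −1.80 at 500 bp, −1.99 within rank groups, and −16.0 to 3.77 with a library or line left out. The width difference was −0.000613 with reciprocal overlap, −0.0323 with either replicate, 0.0370 with 380 peaks, 0.00161 over the median score, 0.0171 within rank groups, −49.5 in bp, and −0.0413 to −0.00364 with a library or line left out. The cause of these changes was not tested.

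Against the other lines, no adjusted p passed 0.05 under any alternative. In some alternatives none could, so this is no evidence on them. The smallest possible exact permutation p was 0.0667 without another line, 0.143 without an HCT116 library and 0.25 with lines as units. The promoter, HIF-2α and width differences between HCT116 and the other lines kept their sign in all of them, but their size moved. The promoter difference ran from 21.9 (without HCT116 replicate 2) to 49.6 points (over the median score), and was 26.0 without HCT116 replicate 3. The HIF-2α difference ran from −42.4 (without PC3) to −9.40 (either replicate), and was −10.9 with 380 peaks. With either replicate, line-only minus shared was negative in HCT116 and in the mean of the other lines. The width difference ran from 0.00295 (without HCT116 replicate 3) to 0.0916 (380 peaks), and was 0.0189 without HCT116 replicate 2, 0.0665 with either replicate and 0.0465 without PC3 replicate 2. The rank difference turned to 9.51 with 380 peaks. The RCGTG difference turned to 1.29 against sites, 11.4 with either replicate, 9.91 with 380 peaks, 6.23 over the median score and 1.5 in whole peaks, and ran from −7.66 to 7.56 with a library or line left out. The labels tie no batch to a replicate number. With the number as a replicate block, which leaves out libraries numbered 1, the promoter difference was 39.6 points (exact permutation p = 0.125, the smallest 8 relabellings allow) and the RCGTG difference 0.963.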

Other observations

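The HCT116-only share of sites varied between chromosomes. On chromosome 16, 84 of 147 HCT116 sites were HCT116-only (57.1%, Wilson 95% interval 49.1 to 64.9), against 41.0% on all chromosomes. HCT116 had 17.4 sites per 100 protein-coding genes there, next to 6.14 for the sites of the other lines summed. That density was not the highest. HCT116 had 20.0 sites per 100 genes on chromosome 8 (other lines 10.6) and 17.6 on chromosome 18 (other lines 10.3). On the other autosomes the share ran from 30.2% (chromosome 12, 35 of 116) to 50.8% (chromosome 22, 30 of 59). Chromosome X had 24 HCT116 sites, 6 of them HCT116-only. DNA copy number was not measured in these files, and its part in these shares was not tested.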
